A study of Caenorhabditis elegans with 2 samples.

Results

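In the pooled tail length table of L4 worms, 52 genes carried no gene symbol, had at least 500 tail measurements and had a median poly(A) tail of 50 nt or less. They were taken from 13601 listed genes. Of these, 6948 were given with a protein identifier in place of a symbol, and 1404 of those had at least 500 measurements. Because the members were chosen on measurement number and median tail length, those values, and every other value read from the same tails, are given as a description with no test. The share of protein-identifier genes that met the length limit was 3.70% of the 1404, against 6.49% of the 2328 genes with a symbol and 5.44% of all 3732 genes with 500 measurements.

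Both libraries came from whole wild-type Caenorhabditis elegans of the N2 Bristol strain, untreated, synchronized, grown at 25 °C on OP50 bacteria and taken at 29 h, in the middle of the last larval stage. mTAIL-seq enriches polyadenylated RNAs through the adapter ligated at their 3′ end, and the length of each tail is read from the sequencer's fluorescence. Each measurement is called a tag here. The deposited table merges the 2 biological replicates into 1 list of tail lengths per gene, so each gene has 1 value, the spread between replicates is unknown, and no comparison between conditions exists.

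The poly(A) tail is added in the nucleus, is bound by poly(A)-binding protein in the cytoplasm and is shortened by deadenylases, a step that often precedes decay of the mRNA. Abundant, stable mRNAs, such as those for ribosomal proteins, are known for short tails in many eukaryotes. Genes without a symbol in C. elegans are mostly known from their sequence name alone, which joins the name of a sequenced clone and a number.

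The table held 17376490 tags, with a shortest called tail of 5 nt, and 10 to 322583 tags per gene. Of 32 marker genes for intestine, body muscle, pharynx, epidermis, neurons, germ line, sperm and adult yolk, 29 were listed, and the missing ones were col-19, vit-3 and vit-5. In a whole animal, fewer cells of a type and less RNA per cell cannot be told apart, so tag numbers below describe the animal as a whole.

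The 52 genes held 404538 tags, 2.33% of the total, and the 4 with the most tags held 58.15% of these. Tags per gene ranged from 506 to 96893, with 35 genes at 1000 or more and 9 at 10000 or more. Their medians ran from 29 to 50 nt, and the median of the 52 medians was 46 nt. Of the genes, 9 had medians of 40 nt or less, 15 lay above 40 and up to 45 nt, and 28 lay above 45 nt. For comparison, all 3732 genes with 500 tags had a median of medians of 75 nt. The other 1352 protein-identifier genes with 500 tags, above 50 nt by the rule, had one of 77 nt. The whole list of 13601 genes, with 10 or more tags each, had one of 82 nt.

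**Figure D1:**
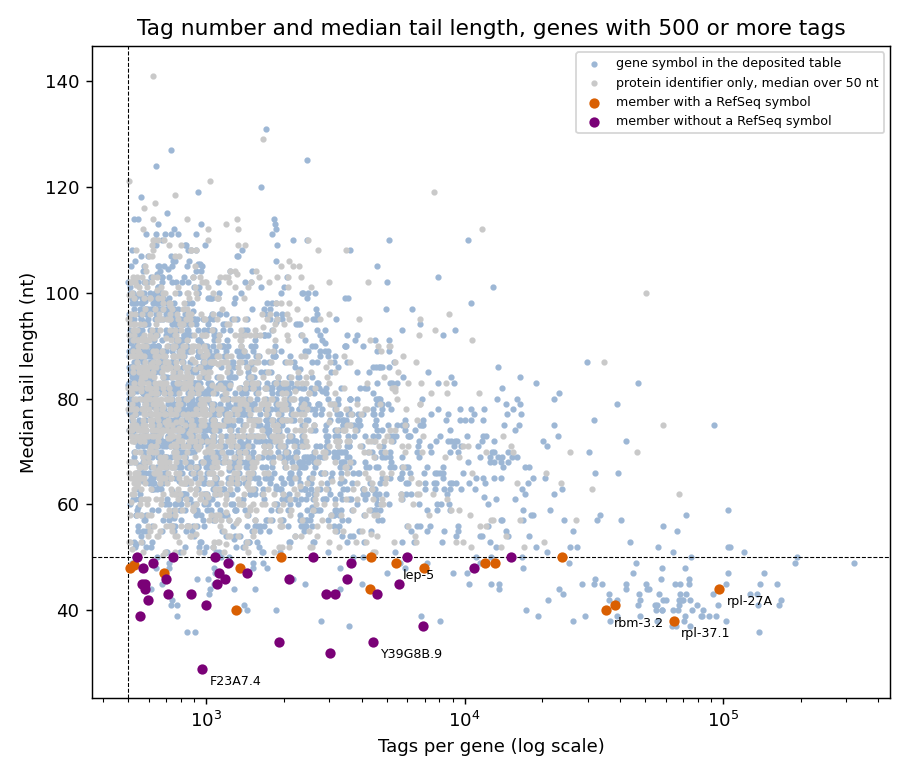
Tags per gene (log axis) against median tail length in nt for the 3732 genes with at least 500 tags; each point is 1 gene of the pooled table and dashed lines mark the limits of 500 tags and 50 nt. The 52 members lie in the lower part of the plot, from F23A7.4 at 29 nt to genes at 50 nt, and rpl-27A has the most tags of them.

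Many of these genes were unnamed in the deposited table but have a symbol in NCBI's table for the WBcel235 assembly. All 52 matched it by sequence name, and 17 of them (32.7%) had a symbol there, against 449 of the other 1352 protein-identifier genes (33.2%). The named members held 311485 tags and the 35 others 93053. Medians of medians were 48 nt for the named and 45 nt for the others. Median shares of tails under 30 nt were 13.0% and 19.9%, and those of tails over 100 nt 7.31% and 9.71%. Medians of the named members ran from 38 to 50 nt, inside the range of the others, and the 4 members under 35 nt had no symbol.

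The 3 most abundant members encode proteins of the large ribosomal subunit. rpl-27A (Y37E3.8) had 96893 tags and a median of 44 nt, with a 95% interval from order statistics of 44 to 45 nt. For rpl-37.1 (W01D2.1) the 64542 tags had a median of 38 nt, and 38.2% of them lay in the single bin from 30 to 39 nt. The third, rplp-2.1 (C37A2.7), encodes the ribosomal stalk protein P2 and had a median of 41 nt over 38396 tags. Among the 45 other large-subunit and stalk genes with at least 100 tags, the medians ran from 36 to 59 nt with a median of 42 nt, and 43 of the 45 were at 50 nt or less. These 3 members therefore lay inside the range of their named relatives, at ranks 3, 18 and 35 of 48 from the shortest, with rpl-37.1 level with rpl-21 and with rpl-37.2, whose 2792 tags also had a median of 38 nt. The stalk gene rplp-2.2 stood at 40 nt, rplp-1 at 45 nt and rplp-0 at 59 nt. Tail intervals of all these genes were at most 1 nt wide and cover counting error only. Pairs with like names, such as rpl-37.1 and rpl-37.2, may share sequence, so the division of tags between them is uncertain.

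RNA-binding proteins gave the fourth most abundant member. rbm-3.2 (R09B3.3) had 35406 tags and a median of 40 nt (40 to 40 nt). Its immediate neighbour in the annotation, rbm-3.1 (R09B3.2), had 4308 tags and a median of 44 nt (43 to 45 nt). They were the single pair of members that lay next to each other among protein-coding genes, and the order statistic intervals of their medians did not overlap. Their outer neighbours were exo-3, with a median of 85 nt, and ubc-12, with 80 nt. The 11 other rbm genes with at least 100 tags, a symbol for proteins with an RNA-binding motif, had medians from 64 nt (rbm-34) to 96 nt (rbm-5). The rule put the 2 members below 50 nt, so the gap between them and the others is a description. How alike rbm-3.1 and rbm-3.2 are in sequence was not measured, and the division of tags between them is uncertain.

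Respiratory chain genes contributed 2 members. cox-6B (Y71H2AM.5), a subunit gene of cytochrome c oxidase, the last complex of the chain, had 11973 tags and a median of 49 nt (48 to 49 nt). In the cox series, cox-6A had the same median over 7131 tags, cox-7C and cox-4 followed at 53 and 54 nt, and the assembly factor gene cox-10 was longest at 108 nt. The 13 other cox genes had a median of 61 nt over their medians. That set mixes subunit and assembly factor genes, so it is not a comparison with subunit genes alone. nduv-2 (F53F4.10), a subunit gene of complex I, which takes electrons from NADH, had 6994 tags and a median of 48 nt (47 to 48 nt). The 29 other complex I genes with ndu or nuo symbols ranged from 56 to 92 nt, and the nearest, nuo-2 and nduv-3, were both at 56 nt with intervals of 55 to 57 nt. None of the 29 was at 50 nt or less. All 29 had at least 500 tags, so any of them listed without a symbol would then have been a member. The gap is therefore a description.

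**Figure D2:**
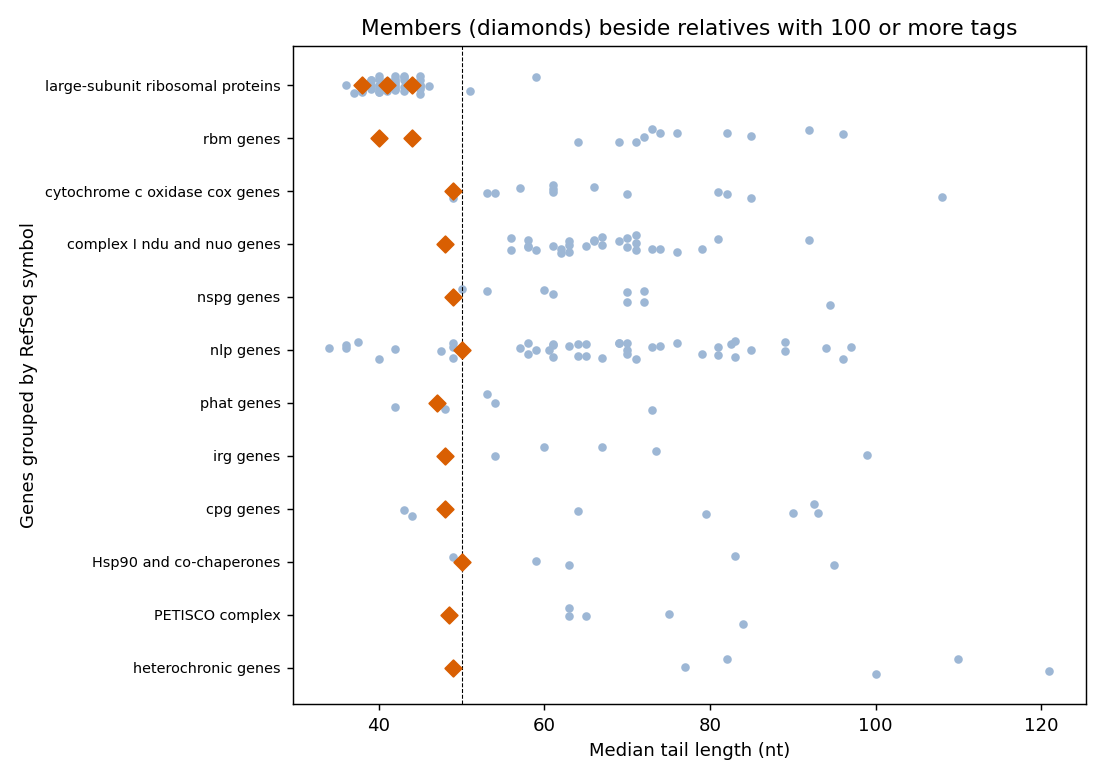
Median tail length in nt of 1 gene per point, in rows of relatives grouped by RefSeq symbol or by named complex, for genes with at least 100 tags; diamonds are members, circles other genes, and the dashed line marks 50 nt. The rpl members at 38, 41 and 44 nt lie among their relatives. By contrast, rbm-3.2 and rbm-3.1 at 40 and 44 nt, nduv-2 at 48 nt and pid-3 at 48.5 nt lie left of every circle in their rows. So do irg-4 at 48 nt, lep-5 at 49 nt and nspg-7.1 at 49 nt, the last close to a circle at 50 nt. The rule put every diamond at 50 nt or less. Vertical scatter within a row has no meaning.

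lep-5 (H36L18.2) is annotated as a long noncoding RNA in the RefSeq table, although the deposited table gives it a protein identifier, and it was the 1 member not annotated as protein coding. It belongs to the heterochronic genes, which time larval development, and acts in the passage from juvenile to adult form. lep-5 had 5416 tags and a median of 49 nt (48 to 50 nt). Of its tails 21.7% were under 30 nt (95% Wilson interval 20.6 to 22.8%) and 7.48% were over 100 nt. Beside it, lin-28, an RNA-binding protein gene of the same pathway, had a median of 77 nt over 155 tags, and lep-2, which encodes a Makorin protein, had 82 nt over 132 tags. lin-42, the period homologue, stood at 100 nt over 635 tags, the zinc-finger gene lin-29 at 110 nt and hbl-1, a hunchback-like gene, at 121 nt. Tag numbers in this group thus ran from 118 for lin-29 to 5416 for lep-5. The other heterochronic genes checked had fewer than 100 tags.

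pid-3 (Y23H5A.3) encodes a subunit of PETISCO, a complex needed for the making of piRNAs, the small RNAs that guard the germ line. It had 524 tags, a median of 48.5 nt (46 to 51 nt) and 9.54% of tails under 30 nt. In the same complex tofu-6 and pid-1 were both at 63 nt, tost-1 at 65 nt, erh-2 at 75 nt and ife-3 at 84 nt, each with 149 to 655 tags. The lowest of their intervals began at 55 nt, for tost-1, above the upper bound for pid-3. Membership itself required a short median of pid-3. With its protein identifier and 655 tags, erh-2 would also have been a member at a median within the length limit. This gap is therefore a description.

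daf-41 (ZC395.10) encodes the p23 co-chaperone of Hsp90. Its 4334 tags had a median of 50 nt (48 to 51 nt), which overlapped that of the co-chaperone gene sti-1, at 49 nt (44 to 54 nt) over 719 tags. Among other co-chaperone genes with at least 100 tags, ahsa-1, an activator of Hsp90, was at 59 nt, fkb-6 at 63 nt, cdc-37, which brings kinases to Hsp90, at 83 nt and the ubiquitin ligase gene chn-1 at 95 nt.

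Several members encode small secreted or surface products by their symbols. nspg-7.1 (T20D3.2), of a nematode-specific peptide family, had 13131 tags and a median of 49 nt (48 to 49 nt). The 9 other nspg genes with at least 100 tags ranged from 50 nt (nspg-12) to 94.5 nt (nspg-5), with a median of 70 nt. T20D3.6, which shares the clone name with nspg-7.1 and lies beyond 3 intervening protein-coding genes, had 741 tags and a median of 50 nt (47 to 52 nt). phat-8 (F15A4.6), of a family of pharyngeal gland toxin-related peptides, had 684 tags and a median of 47 nt, between phat-2 at 42 nt and phat-3 at 48 nt. The other phat genes with at least 100 tags were at 53, 54 and 73 nt.

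nlp-49 (H05L03.3), a neuropeptide precursor gene, had 1940 tags and a median of 50 nt (48 to 52 nt), 11th from the shortest of the 46 nlp genes with at least 100 tags. Those ranged from nlp-80 at 34 nt to nlp-25 at 97 nt. cpg-18 (C45E5.4), named for the chondroitin proteoglycans that include eggshell components, had 506 tags and a median of 48 nt (44 to 52 nt). cpg-1 and cpg-2, proteoglycan genes of the eggshell, were at 43 and 44 nt, and the remaining cpg genes with at least 100 tags lay between 64 and 93 nt.

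Of the infection response genes, irg-4 (F08G5.6) had 1353 tags and a median of 48 nt (46 to 49 nt). Of the other irg genes with at least 100 tags, irg-8 was at 54 nt, irg-5 at 60 nt, irg-7 at 67 nt, irg-3 at 73.5 nt and irg-2 at 99 nt. sysm-1 (T24B8.5), a toxin-like peptide gene used as a readout of the p38 immune pathway, had 1308 tags and a median of 40 nt (38 to 41 nt). Its share of tails over 100 nt, 1.38% (0.872 to 2.16%), and its SD, 19.99 nt, were the lowest of the 52 genes. The middle 50% was nevertheless narrower in F23A7.4, R102.2 and Y39G8B.9, and as wide in rpl-37.1 and Y48E1B.8. The last named member, kdp-1 (Y67H2A.5), had 23777 tags and a median of 50 nt (50 to 51 nt).

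The shortest medians belonged to genes with no symbol in either table. F23A7.4 had a median of 29 nt (28 to 30 nt) over 966 tags. In this gene 51.6% of tails were under 30 nt (95% Wilson interval 48.4 to 54.7%), the bins from 20 to 29 nt and from 30 to 39 nt held 32.8% and 32.5% of tags, and 18.3% lay between 10 and 19 nt. Its distribution was highest at 23 nt, smoothed over 5 nt, whereas the other 51 members were highest between 25 and 44 nt. Next to F23A7.4 in the annotation lies F23A7.8, which had 176 tags and a median of 35 nt.

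R102.2 followed with a median of 32 nt (32 to 33 nt) over 3026 tags. Of its tags 35.1% had tails under 30 nt and 70.6% lay between 20 and 39 nt. Y39G8B.9, with 4421 tags, and Y48E1B.8, with 1919 tags, had medians of 34 nt, with intervals of 33 to 34 nt and 33 to 35 nt. Their shares of tails under 30 nt were 31.8% and 37.9%. Y119D3B.21 had 6915 tags, the most of any unnamed member with a median under 40 nt, and a median of 37 nt (37 to 38 nt). Its spread was wider than that of these genes, with an upper quartile of 64 nt and 5.63% of tails over 100 nt. Y39G8B.7, which shares a clone name with Y39G8B.9 and lies beyond 4 intervening protein-coding genes, had 554 tags and a median of 39 nt (38 to 42 nt). Y39G8B.10, which lies next to Y39G8B.9, had a median of 45 nt.

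**Figure D3:**
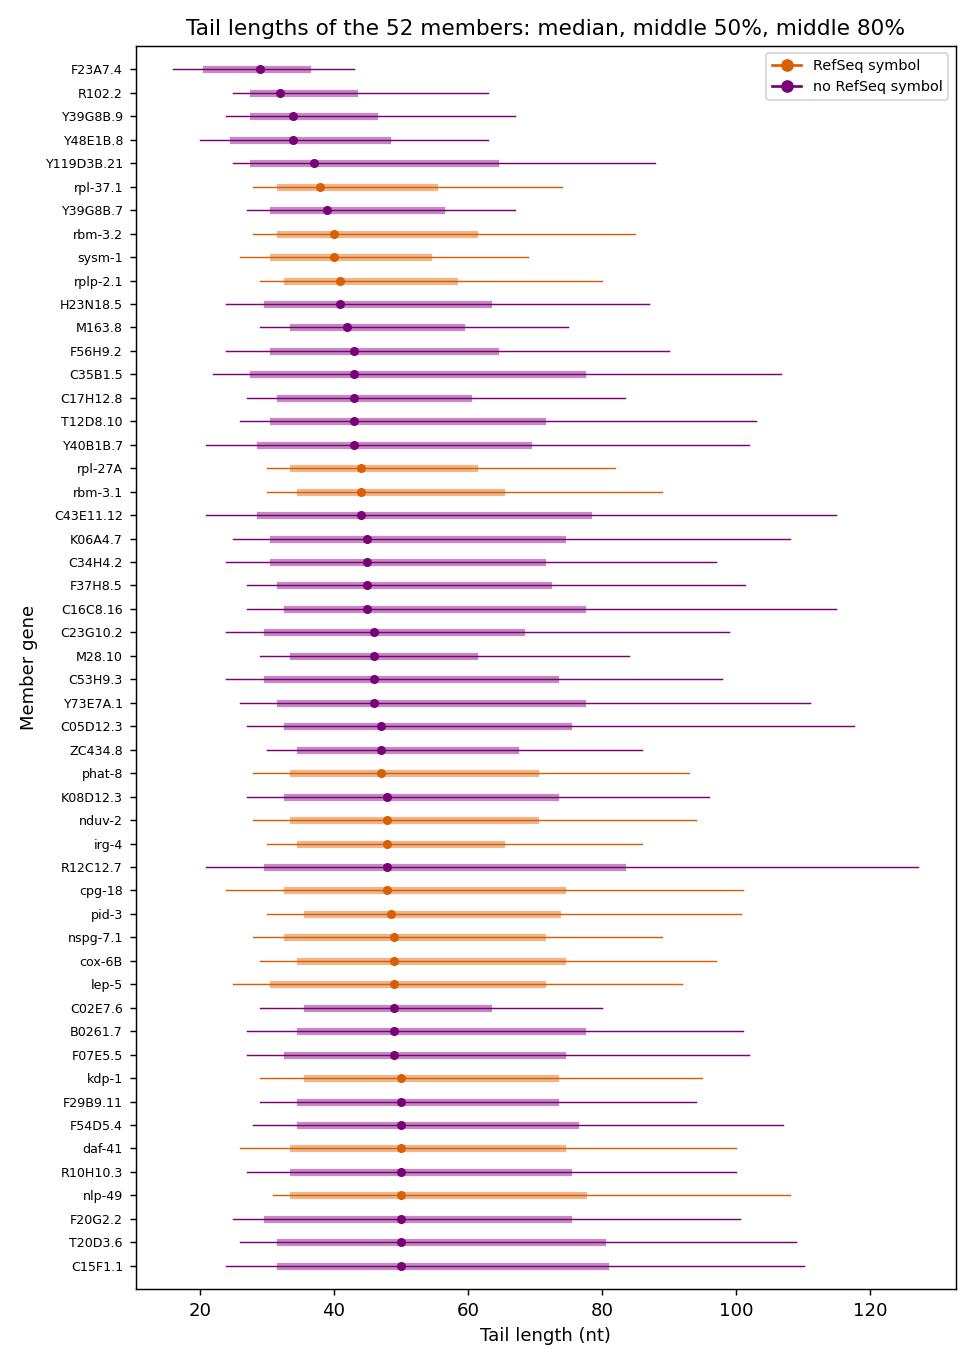
Tail length in nt of each of the 52 members, ordered by median; dots are medians, thick bars the middle 50% and thin lines the middle 80% of a gene's tags. Medians run from 29 to 50 nt, while the upper end of the middle 80% runs from 43 nt in F23A7.4 to 127 nt in R12C12.7.

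In the order of medians, neighbours were mostly not separated: in 49 of 51 adjacent pairs the 95% intervals overlapped. The breaks lay between F23A7.4 and R102.2 and between Y48E1B.8 and Y119D3B.21. For 14 members the interval reached above 50 nt, so their place under the limit was not settled by counting error alone. Other abundant members near the limit were F29B9.11, with 15170 tags and a median of 50 nt (50 to 51 nt), and K08D12.3, with 10854 tags and a median of 48 nt (47 to 48 nt).

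The remaining members, known by sequence name alone, completed the range between these ends. H23N18.5 had a median of 41 nt (39 to 43 nt) over 998 tags, with 23.6% of tails under 30 nt. At 43 nt stood F56H9.2 with 4569 tags, C17H12.8 with 2897, T12D8.10 with 877 and Y40B1B.7 with 711. Among these, C17H12.8 had the lowest share of tails over 100 nt, 4.80%, and T12D8.10 and Y40B1B.7 had 10.7% each.

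K06A4.7 had 5597 tags, the most of the members at 45 nt, and 12.3% of its tails were over 100 nt (95% Wilson interval 11.4 to 13.1%). C34H4.2 with 1101 tags and F37H8.5 with 578 tags were also at 45 nt. C23G10.2, M28.10, C53H9.3 and Y73E7A.1 shared a median of 46 nt. In M28.10 10.1% of the 2099 tags had tails under 30 nt, while in C23G10.2 the share was 24.7% of 3519 tags. ZC434.8 was at 47 nt with 1121 tags, and both its short and its long share were low, at 9.19% and 3.84%. B0261.7 and F07E5.5, with 1210 and 620 tags, were at 49 nt, and F54D5.4, with 5967 tags, was at 50 nt with 12.05% of tails over 100 nt.

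Members with like medians differed widely in the length of their upper tails. R12C12.7 had a median of 48 nt (44 to 52 nt) over 569 tags, and 17.9% of its tails were over 100 nt (95% Wilson interval 15.0 to 21.3%). irg-4 had the same median, and 5.32% of its tails were over 100 nt (4.25 to 6.65%). The SDs of these genes were 44.8 and 26.2 nt. After R12C12.7, the highest shares over 100 nt were those of C43E11.12 at 15.3%, C16C8.16 at 14.9%, C15F1.1 at 14.7% and C05D12.3 at 14.6%, each on 539 to 1435 tags. C43E11.12 shared a median of 44 nt with rpl-27A, in which 3.19% of tails were over 100 nt (3.09 to 3.31%). The lowest shares after sysm-1 were those of F23A7.4 at 1.76%, M163.8 at 2.18%, and rpl-37.1 and Y39G8B.9, both at 2.33%. Over all 52 genes 14 had under 5% of tails over 100 nt and 19 had above 10%. The median share was 8.09% in the members and 26.6% in all 3732 genes with 500 tags. A lower share is built in by the limit on the median.

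**Figure D4:**
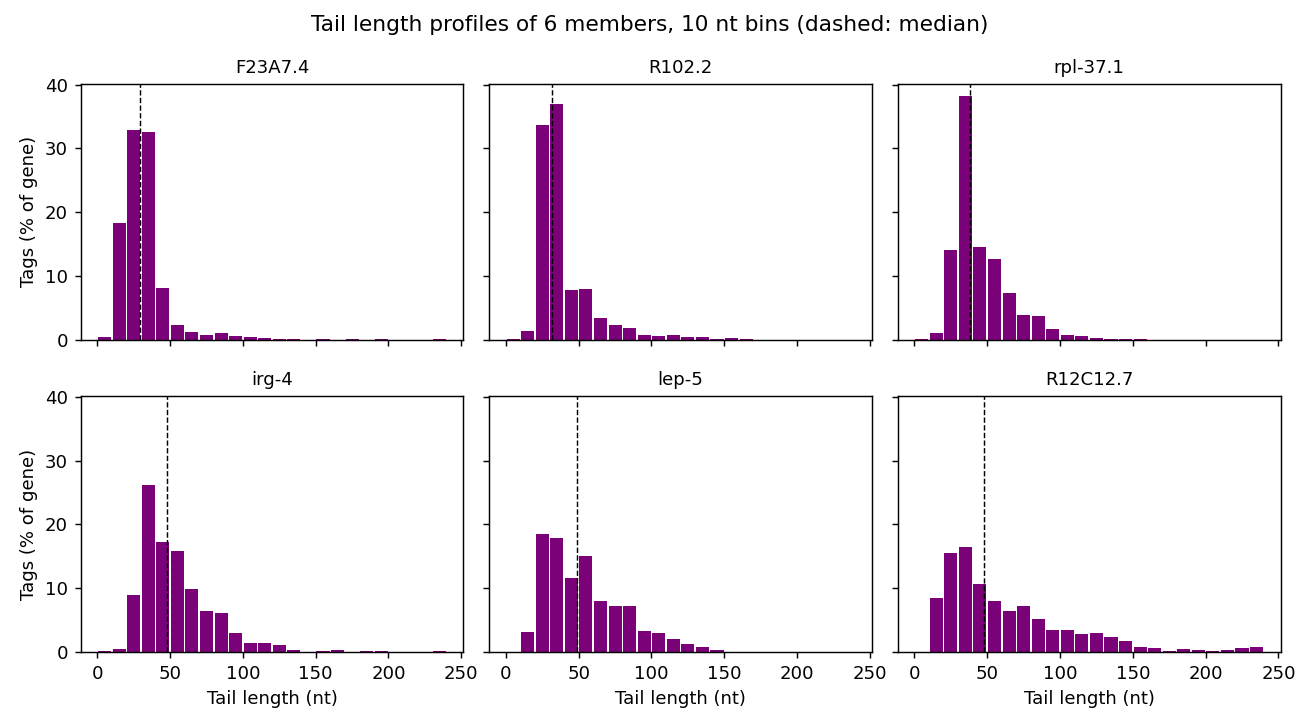
Percent of a gene's tags in 10 nt bins of tail length for 6 members, with the median dashed; the last bin starts at 230 nt and ends at the longest callable tail. F23A7.4 and R102.2 are concentrated under 40 nt, rpl-37.1 has 38.2% of tags from 30 to 39 nt, and R12C12.7, with the same median as irg-4, spreads to the end of the callable range.

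The lower side of the distributions varied as well. At a median of 50 nt, nlp-49 had 6.24% of tails under 30 nt (5.25 to 7.4%), the lowest share of the 52, while F20G2.2 had 22.7% (20.3 to 25.3%) over 1085 tags. nlp-49 had 33.1% of its tags in the bin from 30 to 39 nt and F20G2.2 17.4%. lep-5 and C02E7.6 were both at 49 nt, with 21.7% and 10.3% of tails under 30 nt. C35B1.5 had 29.2% of tails under 30 nt and 11.8% over 100 nt around a median of 43 nt over 3153 tags. Shares under 30 nt were above 10% in 46 of the 52 genes and above 25% in 8. The median share was 16.1% in the members and 6.62% in all 3732 genes with 500 tags. Members were chosen on low medians, so a higher share is built in.

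**Figure D5:**
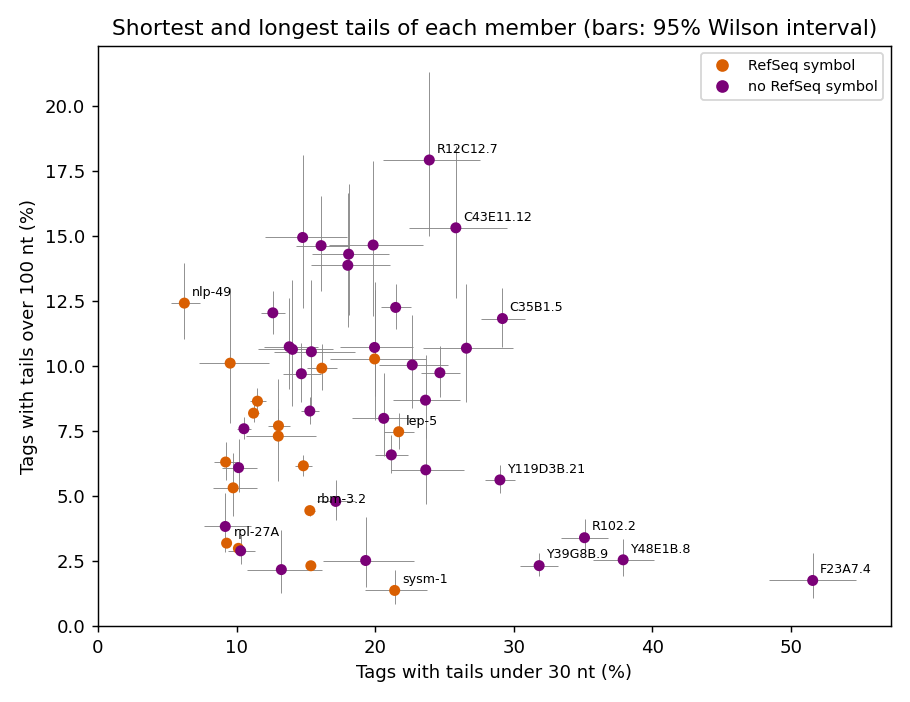
Share of tags under 30 nt against share over 100 nt, both in percent, for each of the 52 members, with 95% Wilson intervals that cover counting error only. F23A7.4 lies apart on the right at 51.6% short tails, R12C12.7 at the top with 17.9% long tails, and rpl-27A at the lower left with 9.29% short and 3.19% long tails.

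Summed over tags, the 3 ribosomal protein members and the other 49 had different profiles. In the ribosomal protein members 52.3% of tags lay between 25 and 44 nt and 25.9% between 45 and 64 nt, and the distribution had maxima at 34 and 54 nt. Between these maxima the lowest count was at 47 nt, and the count at 54 nt exceeded it 1.14-fold. In the other 49 members 42.6% lay between 25 and 44 nt and 23.4% between 45 and 64 nt, and the summed distribution had a single maximum at 32 nt. Gene by gene the sets were not separated in this way. The bin from 50 to 59 nt held more tags than the bin from 40 to 49 nt in 1 of the 3 ribosomal protein members, rpl-27A, and in 11 of the other 49, among them lep-5 and nspg-7.1. The share of tails under 30 nt was 11.4% in the former (95% Wilson interval 11.3 to 11.6%) and 16.3% in the latter (16.2 to 16.5%). For tails over 100 nt the shares were 2.88% (2.80 to 2.95%) and 7.27% (7.16 to 7.38%). These intervals treat tags as independent and leave out differences among genes.

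Genes with a symbol that met the same limits gave a second set of abundant short tails. There were 151 of them, and 71 of these carried ribosomal protein symbols. The median tag number was 2015 in the remaining 80 and 1435 in the 49 members without ribosomal protein genes, and the medians of medians were 47 and 46 nt. The median share of tails over 100 nt was 6.60% in these 80, against 8.27% in the 49 members, and the ranges were 0.444 to 16.4% and 1.38 to 17.9%. For tails under 30 nt the median shares were 16.3% and 17.2%. Genes with medians above 40 and up to 45 nt had a median SD of 32.5 nt in the 13 members there that were not ribosomal, 26.3 nt in the 22 symbol genes without ribosomal protein genes and 22.9 nt in the 40 ribosomal protein genes. Above 45 nt the corresponding values were 31.3, 29.9 and 24.3 nt. At 40 nt or less they were 21.8, 25.0 and 21.2 nt, so that the order of the members and the other symbol genes was not the same in each range. No test of these differences was made, since both sets were chosen on the tails compared.

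With members left out, genes lying next to members had a median of medians near that of genes in general. A larger share of them had short medians, but this rests on 4 genes and was not tested. Of 53 neighbouring genes that were not members and had at least 100 tags, the medians ran from 35 to 127 nt, with a median of 76 nt, and 4 (7.55%) were at 50 nt or less. Of all 8803 genes with 100 tags the median was 80 nt and 330 (3.75%) were at 50 nt or less. Those 4 were F23A7.8, Y39G8B.10 and the ribosomal protein genes rps-3, beside C23G10.2, and rplp-1, beside rpl-27A. Leaving out members removed rbm-3.1 and rbm-3.2 from the neighbours, whereas the 8803 genes included the members. A protein-identifier neighbour at 50 nt or less with enough tags for the rule would itself have been a member. Medians and shares of the neighbours are therefore a description. For 39 members the annotation showed no overlapping gene, and 6 overlapped another listed gene, namely C05D12.3, F37H8.5, R10H10.3, rpl-37.1, Y48E1B.8 and ZC434.8. The partners had 17 to 350 tags and medians of 80 to 115 nt, longer than those of the members. The sources used here do not say how tags in overlapping stretches were assigned, so these values are uncertain. The annotation may differ from the one behind the deposited table.

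Just inside the limit on tags lay cpg-18 with 506 tags, pid-3 with 524, C15F1.1 with 539, Y39G8B.7 with 554 and C16C8.16 with 562, at medians of 48, 48.5, 50, 39 and 45 nt. Just outside it were F49F1.5 with 464 tags and a median of 48 nt, nspg-12 (Y34B4A.5) with 461 and 50 nt, W05F2.6 with 432 and 49 nt, C01G10.9 with 424 and 46.5 nt, and K01D12.15 with 400 and 50 nt. On the length limit, kdp-1, F29B9.11, F54D5.4, daf-41 and R10H10.3 stood inside at 50 nt. ZK1055.7 stood outside at 50.5 nt, and F09B12.3, F42A10.6, C26B9.5 and R12E2.14 at 51 nt. The intervals of those last 4 genes reached down to 50 nt or less, and 23 protein-identifier genes had medians from 50.5 to 52 nt, against 21 members from 48 to 50 nt.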

How the data were processed

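The authors obtained tail lengths with tailseeker2, per the labels' protocols, from RNA fragments of 250 to 1000 nt sequenced for 51 and 251 cycles. STAR and bedtools are named in the submitters' processing notes. The build, the annotation and whether tags were collapsed to molecules are not stated in the sources used here. The deposited counts are tags per gene, pooled over 2 replicates. Recomputing count, mean, median and SD from the deposited lists of lengths gave 0 differing genes of 13601.

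Members were taken as protein-identifier genes with 500 or more tags and a median of 50 nt or less. Members and gene groups were chosen with earlier results of these data known, and the groups of relatives and the neighbour comparison after the values were seen. Intervals are 95% order-statistic intervals for medians and 95% Wilson intervals for shares, checked on simulated data; they cover counting error only. Genes named were the 10 with the most tags, the 10 shortest, the 5 highest and lowest in long tails, the 2 most abundant of each function group, and the 5 on each side of each limit; the other members, named so that all 52 are accounted for, and the pairs at like medians were chosen after their values were seen. Symbols, biotypes and neighbours came from NCBI's WBcel235 table, which matched 13549 genes. Gene positions in that table served to find neighbouring and overlapping genes and are not printed. Sequences were not used here, so the planned counts of protein length, composition, identity and promoter letters were not made, nor were counts by chromosome. Python 3.11.15, numpy 2.4.6, pandas 2.3.3 and scipy 1.17.1 were used.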

Additional observations from a re-analysis of the deposited data

How the results depend on the processing

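The limits set the number of members. It was 24 with a median of 45 nt or less, 120 with 55 nt and 12 with a mean of 50 nt or less, and the median of medians was then 42.5, 51 and 38.5 nt. Other settings gave 35 to 77 members, and the median over all member tags was 43 nt. The share of tags under 30 nt (13.9%) was 13.7% with at least 1000 tags, 14.1% and 13.0% with medians up to 45 and 55 nt, 16.1% with the mean, 12.9% with calls of 20 nt or more, 15.4% without rpl-27A, 16.1% as a median over genes and 16.3% without the 3 ribosomal protein genes, a setting chosen after seeing the data. The share over 100 nt (5.10%) was, in the same order, 4.96%, 3.69%, 7.05%, 3.14%, 4.63%, 5.70%, 8.09% and 7.27%, and 5.20% with at least 250 tags. Leaving out shared protein identifiers changed none of these. No paired analysis was possible because the table does not keep the replicates apart, and for the same reason neither replicate could be left out. Alternatives for protein length and N-terminal stretches were not run.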
